A study of Mus musculus with 21 samples.

Results

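Nuclear receptors are transcription factors that bind small fat-soluble ligands, or none that is known, and switch genes on or off at short DNA elements. Many of them, among them PPARA, the liver X receptors, FXR, PXR and CAR, bind DNA as pairs with a retinoid X receptor. In the liver they are known for setting fatty acid oxidation, cholesterol export, bile acid synthesis and the breakdown of foreign compounds, and HNF4A and LRH-1 (gene Nr5a2) for maintaining the hepatocyte's own program. Described here are 41 mouse genes of this family, chosen by symbol. A gene was followed through the probes whose RefSeq accession maps to its symbol and, among those, through the probe with the highest mean liver signal. Of the 41 genes, 40 had a probe on the array, out of 16535 genes that could be named, and 27 of the 40 passed the detection filter and were tested. Nr3c2 was not matched.

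The samples were livers of female C57BL/6 mice, bought at 5 to 7 weeks of age and acclimatized for 1 to 3 weeks. Each mouse received 1 instillation into the trachea under anesthesia, of 162 µg of nanosized titanium dioxide (nano-TiO2) or of the vehicle alone, which was saline holding 10% lavage fluid, freed of cells, from the lungs of naive mice. The labels give 5 control and 6 TiO2 mice killed 1 day later, and 4 control and 6 TiO2 mice killed 28 days later, all called biological replicates and each on 1 array. Every array carried the liver RNA of 1 mouse in red (Cy5) and the same reference RNA, a pool from 11 mouse cell lines, in green (Cy3). Levels are therefore log2 ratios of liver to reference, which give a gene's excess over the cell line pool and not its amount. The title of the series puts the question: whether particles given into the lung act on the liver.

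The arrays differed by the day on which they were scanned, which the file headers give and the groups do not explain. There were 3 scan days, each with arrays of all 4 groups, and either control group had only 1 array on scan day 1. By the test of the scanner software, the liver signal was well above background at 20907 to 26632 probes on arrays of scan day 2, at 15231 to 16922 on scan day 1 and at 13001 to 16779 on scan day 3. Scan day took 91.7% of the first principal component of all features tested, and the 4 groups took 1.49%. For that reason the model held scan day as a term. The arrays lay on 9 slides, of which 7 held control and TiO2 mice together, and slide was tried as a random block. All 9 hepatocyte markers on the array, the receptor Hnf4a among them, were above background on all 21 arrays. Their median log2 ratio lay between 4.90 and 6.62 on each array. The labels give liver as source and tissue, but their protocol for extraction speaks of lung. Of 10 lung epithelial markers, 3 to 8 were above background per array, with medians of their log2 ratio between -0.14 and 0.11. On all 21 arrays 2 of the 10 were above background, and 7 passed the detection filter used for the receptors. Only 1 of them, Ager, a gene of flat alveolar cells, was above background on 0 of 21 arrays. The source of these signals was not tested.

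Of the 40 receptor genes on the array, 27 were detected in liver, meaning that the liver signal was well above background on 50% or more of the arrays in 1 or more groups. Among all named genes the same rule passed 68.1%, so the members' share was close to the background. Of the 27, 19 were above background on all 21 arrays. These include the fatty acid sensor Ppara, the liver X receptors Nr1h2 and Nr1h3, the bile acid receptor Nr1h4 (FXR), the foreign compound sensors Nr1i2 (PXR) and Nr1i3 (CAR), all 3 retinoid X receptors, Hnf4a, Nr5a2 and the estrogen receptor Esr1. By class, 8 of 9 sensors of lipids, bile acids and foreign compounds were detected, 3 of 3 retinoid X receptors, 3 of 5 receptors for retinoic acid and thyroid hormone, 1 of 2 ROR receptors, 5 of 9 genes of the HNF4 and NR2 families, 4 of 6 of the NR0, NR4A, NR5 and NR6 families, and 3 of 6 steroid and estrogen-related receptors.

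**Figure D1:**
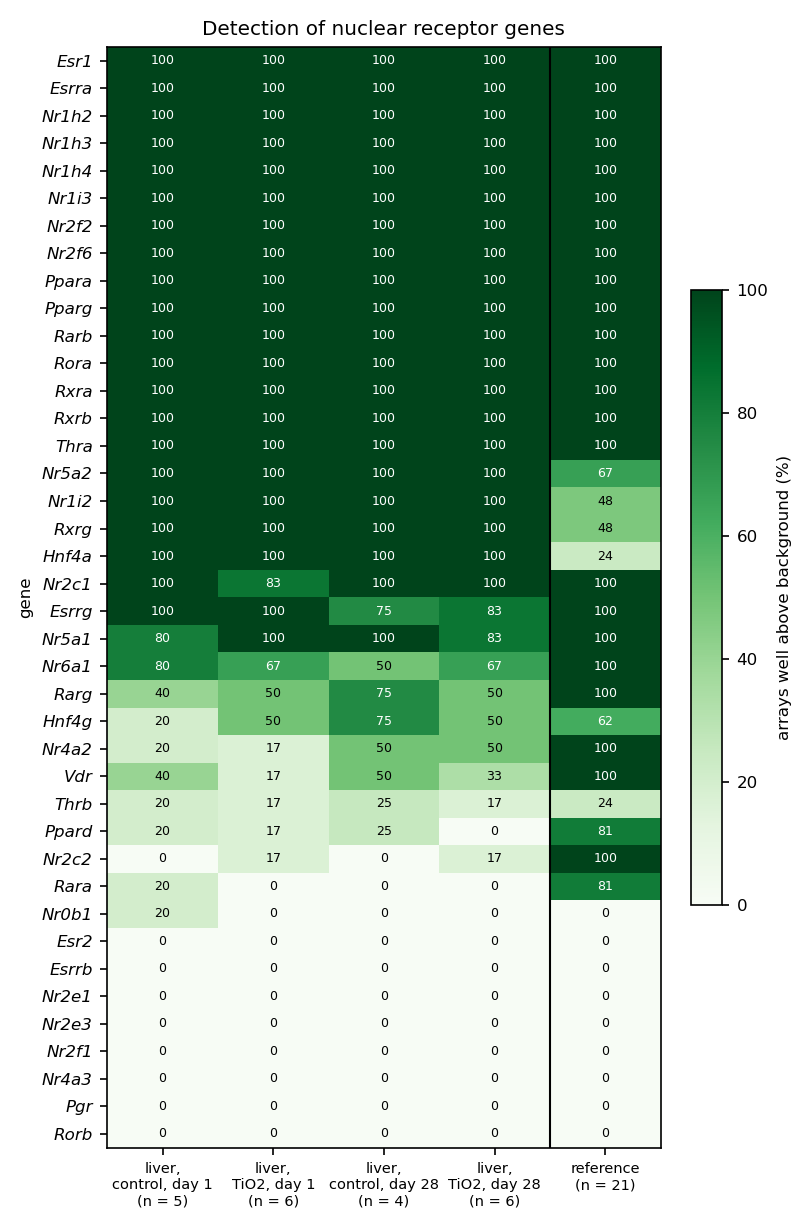
Percent of arrays on which the chosen probe of each of the 40 receptor genes (rows) was well above background in the liver channel, by group (first 4 columns), and in the reference channel of all 21 arrays (last column). The upper 19 genes were above background in liver on all 21 arrays, and 8 genes at the foot were so on 0 arrays in liver.

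The other 8 of the 27 were above background on part of the arrays. Nr2c1, a receptor with no known ligand, was seen on 20 of 21 arrays, the estrogen-related receptor Esrrg and Nr5a1 on 19 each, and Nr6a1 on 14. Rarg, a retinoic acid receptor, was seen on 11, Hnf4g on 10, and the vitamin D receptor Vdr and Nr4a2 on 7 each. Vdr reached the 50% mark only in the day 28 controls, with 2 of 4 arrays, so its differences rest mostly on values near background. Requiring every array of a group would have kept 22 genes, and requiring any 1 array would have kept 32.

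The other 13 genes on the array were not tested. Rara, Ppard and Nr2c2 were mostly seen in the reference alone. Their liver channel was above background on 1, 3 and 2 of 21 arrays, and their reference channel on 17, 17 and 21. A further 10 were not well above background in most arrays of either channel: Nr0b1, Nr2e1, Nr2e3, Nr2f1, Nr4a3, Rorb, Thrb, Esr2, Esrrb and Pgr. Thrb, the thyroid hormone receptor isoform known as the main one of liver, was above background on 4 arrays in liver and 5 in reference by its chosen probe, and on 2 and 1 by its other probe. Across these 10 genes the log2 ratio stayed between -0.27 and 0.51 on every array, a ratio of 2 channels near background and not a level. A probe that is not above background does not show that its gene is off.

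Where the promoter sequence may help to picture these genes, 250 bases before the start were taken from RefSeq's table for GRCm38.p6, which held an entry for 38 of the 41 genes. The arrays' own grid is built on mm8, so these positions do not refer to the probes. The windows were searched on both strands for AGGTCA, the half-site that most nuclear receptors bind singly or in pairs, and for CAAAGTCCA, an HNF4 site. Nr1h4 and Nr5a2 are shown as regulators of bile acid metabolism that held AGGTCA, and Ppara as a member that held neither motif. Capitals mark the matches, which read TGACCT where AGGTCA lies on the opposite strand. The Nr1h4 window is chr10:89506659-89506908 on the minus strand, the Nr5a2 window chr1:136960449-136960698 on the minus strand, the first of 2 starts listed, and the Ppara window chr15:85735526-85735775 on the plus strand, all written 5′ to 3′ along the gene.
Nr1h4: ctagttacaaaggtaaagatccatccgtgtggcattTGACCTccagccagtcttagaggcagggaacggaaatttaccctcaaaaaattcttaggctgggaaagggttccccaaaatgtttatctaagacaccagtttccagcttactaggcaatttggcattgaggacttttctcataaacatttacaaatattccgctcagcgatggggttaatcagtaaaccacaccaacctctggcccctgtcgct
Nr5a2: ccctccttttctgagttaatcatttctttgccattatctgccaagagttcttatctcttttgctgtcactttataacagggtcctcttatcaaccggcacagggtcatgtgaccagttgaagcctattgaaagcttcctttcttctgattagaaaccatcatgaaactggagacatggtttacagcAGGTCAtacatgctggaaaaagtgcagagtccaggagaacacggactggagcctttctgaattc
Ppara: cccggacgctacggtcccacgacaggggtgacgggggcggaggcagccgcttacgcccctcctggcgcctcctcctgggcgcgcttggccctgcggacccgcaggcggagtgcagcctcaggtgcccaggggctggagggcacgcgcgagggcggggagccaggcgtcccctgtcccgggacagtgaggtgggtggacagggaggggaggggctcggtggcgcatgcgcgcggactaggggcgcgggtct
Counted from the start, the AGGTCA match began at -214 in Nr1h4 and at -64 in Nr5a2. The G and C content was 44.4% in Nr1h4, 43.2% in Nr5a2 and 76.4% in Ppara. AGGTCA was present in 4 of the 24 tested members with a window (16.7%), Nr1h4, Nr5a2, Pparg and Rarg, against 13.8% of 27025 promoters of all genes. CAAAGTCCA was present in 0 of the 24, against 0.381% of all. A match of letters is a description of the window and not a bound site.

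Of the 27 genes tested, 14 lay at least 2-fold above the reference (a log2 ratio of 1) and 2 at least 2-fold below it. Among all 17658 features tested, 26.2% passed that size with an adjusted p under 0.05 by limma, 13.1% above and 13.2% below. The detection filter and the choice of a gene's brightest probe both used the liver signal, which pushes the ratio up, so the members' counts and ratios are a description with no test. The other probes of Hnf4a, Rxra and Esr1 gave far lower ratios, as described with each gene, and with the mean of all probes of a gene 15 members passed instead of 16. The 14 genes were the sensors Nr1h3, Nr1h4, Nr1i2, Nr1i3, Ppara and Pparg, the partners Rxra and Rxrg, and Rarb, Rora, Hnf4a, Nr2f6, Nr5a2 and Esr1. Among them the reference was above background on 5 of 21 arrays for Hnf4a, on 10 for Nr1i2 and Rxrg and on 14 for Nr5a2, so the size of these ratios rests on a reference near background. The 2 lower ones were Vdr, also a sensor, and the thyroid hormone receptor Thra. The ratios come from different probes and give no order of levels. In whole liver, fewer cells of a type and less RNA per cell cannot be told apart.

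**Figure D2:**
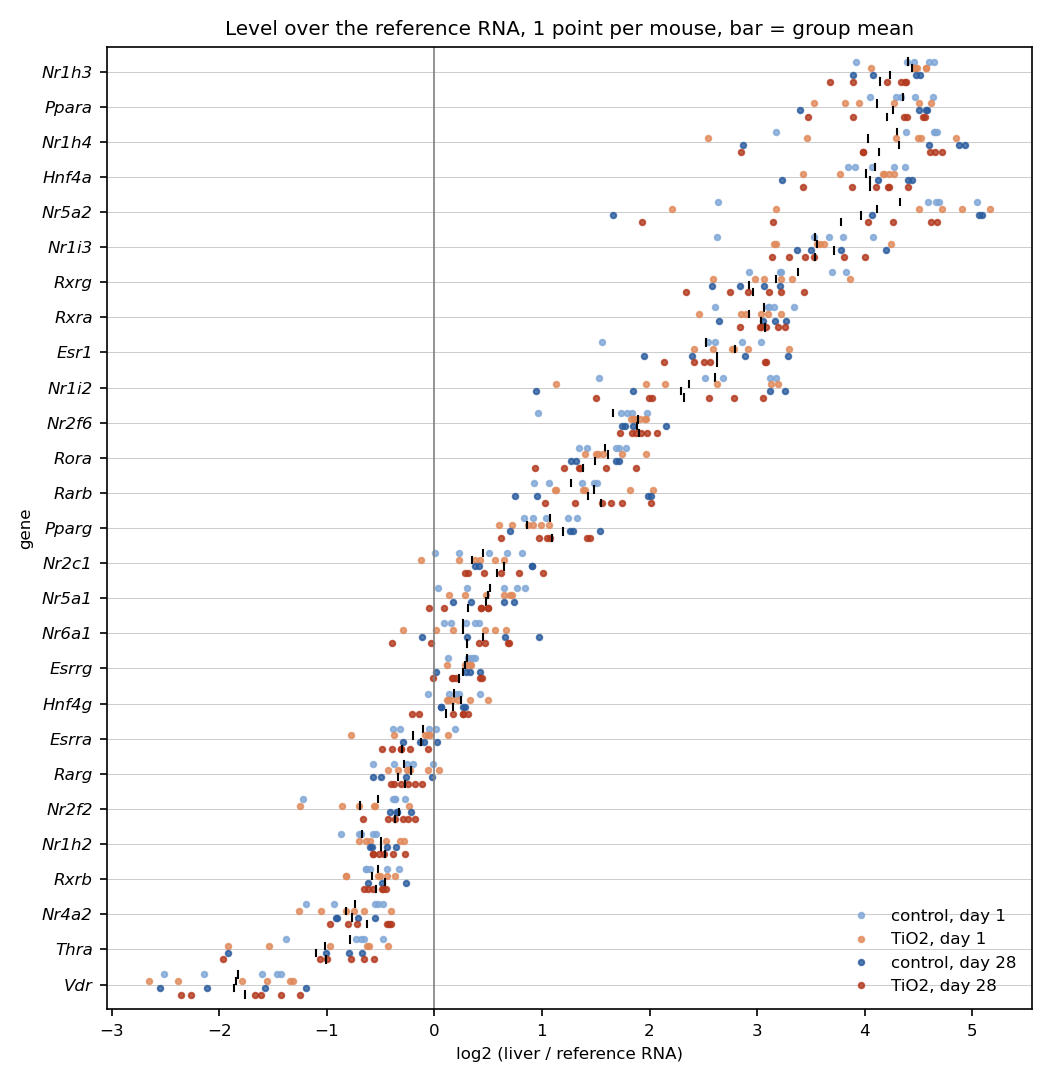
Log2 ratio of liver to reference RNA (x axis) for the 27 tested receptor genes (rows), with 1 point per mouse coloured by group and a bar at each group mean; the line at 0 marks equal signal. The mean of the 4 groups is 4.30 for Nr1h3 in the top row and -1.77 for Vdr in the bottom row, and TiO2 and control mice of the same day overlap in every gene.

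Nr1h3 encodes LXR-alpha, the oxysterol sensor that drives cholesterol export. Its log2 ratio was 4.39, 3.92, 4.46, 4.59 and 4.64 in day 1 controls, and 3.89 to 4.51 in day 28 controls. It was 4.06 to 4.57 in TiO2 mice of day 1 and 3.68 to 4.39 in those of day 28. The groups overlapped, and the fitted mean of the 4 groups was 4.30 ± 0.06 (SE). Here and below, the SE or interval of a fitted mean comes from a model with scan day as a term. It leaves out differences between scan days and between probes of a gene. It also leaves out any spread of the reference, which is 1 RNA pool, and of the dyes, which were not swapped. Its paralog Nr1h2 (LXR-beta) lay below the reference on every array, between -0.87 and -0.27, at a fitted mean of -0.52 ± 0.03.

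Ppara is the fatty acid sensor whose targets burn fat in fasting. It read 4.05, 4.47, 4.30, 4.64 and 4.34 in day 1 controls and 3.40, 4.50, 4.57 and 4.58 in day 28 controls. In TiO2 mice it ranged from 3.53 to 4.62 at day 1, with a median of 4.11, and from 3.48 to 4.56 at day 28, with a median of 4.38. The low values were mostly from scan day 1, where the mean over groups was 3.69 against 4.40 on scan day 2 and 4.48 on scan day 3. Of its family, Pparg, the regulator of fat storage, had a fitted mean of 1.03 ± 0.04, and Ppard was not detected in liver.

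Nr1h4 encodes FXR, the bile acid receptor that restrains bile acid synthesis. It read 3.17, 4.64, 4.65, 4.67 and 4.38 in day 1 controls and 2.87, 4.87, 4.93 and 4.60 in day 28 controls. TiO2 mice ranged from 2.54 to 4.84 at day 1 and from 2.85 to 4.72 at day 28. In each control group the lowest mouse was the single one from scan day 1. Nr5a2 encodes LRH-1, which acts with HNF4A on bile acid enzymes, and split further. It read 2.63, 4.67, 4.69, 5.04 and 4.59 in day 1 controls, and 1.66, 5.09, 5.06 and 4.07 in day 28 controls. TiO2 mice ranged from 2.20 to 5.16 at day 1, with a median of 4.61, and from 1.93 to 4.67 at day 28, with a median of 4.15. The reference channel of Nr5a2 was not above background on 7 of 8 arrays of scan day 2 and was above it on the other arrays. Its mean was 2.46 on scan day 1, 4.86 on scan day 2 and 4.46 on scan day 3, and scan day took 87.2% of its variance over the 21 arrays against 3.53% for the groups. For Nr1h4 those shares were 83.5% and 2.75%.

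Hnf4a, which maintains hepatocyte identity, did not share this split. It read 4.37, 3.91, 4.07, 4.27 and 3.85 in day 1 controls and 4.44, 4.12, 4.40 and 3.23 in day 28 controls. Its means by scan day were 4.22, 4.20 and 3.73, lowest on scan day 3, and TiO2 mice ranged from 3.43 to 4.27 at day 1 and from 3.43 to 4.40 at day 28. The reference channel of this probe was above background on 5 of 21 arrays, so the size of the ratio is set by a reference signal near background. Its other 2 probes gave fitted ratios of 1.17 and 1.83 against 4.05, with the liver channel above background on all 21 arrays for both. Hnf4g, the paralog, had a fitted ratio of 0.17 ± 0.03.

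The foreign compound sensors differed in spread. Nr1i3 encodes CAR, which induces Cyp2b enzymes. It read 2.63, 3.53, 3.67, 4.08 and 3.80 in day 1 controls, 3.78, 3.50, 3.37 and 4.20 in day 28 controls, 3.16 to 4.24 in TiO2 mice of day 1 and 3.14 to 4.00 in those of day 28. Nr1i2 encodes PXR, which induces Cyp3a enzymes. It read 1.53, 2.51, 3.12, 2.69 and 3.18 in day 1 controls and 0.94, 3.12, 3.26 and 1.85 in day 28 controls, and TiO2 mice reached from 1.13 to 3.20 at day 1 and up to 3.06 at day 28. Its reference channel was above background on 10 of 21 arrays. Its means were 1.54, 2.90 and 2.56 on scan days 1, 2 and 3. The fitted means of the 4 groups were 3.57 ± 0.06 for Nr1i3 and 2.32 ± 0.10 for Nr1i2.

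The retinoid X receptors are the shared partners. Rxra, the main retinoid X receptor of liver, had a fitted mean of 3.00 ± 0.03 and Rxrb of -0.52 ± 0.04, and the 95% interval for Rxrg ran from 2.95 to 3.25. Rxra ranged from 2.61 to 3.34 in day 1 controls, with a median of 3.11, and read 2.64, 3.16, 3.27 and 3.06 in day 28 controls, with the scan day 1 mouse lowest in both groups. In TiO2 mice it ranged from 2.46 to 3.22 at day 1 and from 2.84 to 3.26 at day 28. The second Rxra probe, above background on all 21 arrays, gave 0.44 where the chosen one gave 3.00, so the size of the excess depends on the probe. For Rxrg the reference channel was above background on 10 of 21 arrays.

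Among the remaining receptors, Esr1, the estrogen receptor alpha of hepatocytes, had a fitted mean of 2.60 ± 0.05, Nr2f6 one of 1.83 ± 0.05 and the retinoic acid receptor Rarb one of 1.39 ± 0.06. For Rora, an activator in the clock and in lipid metabolism, the 95% interval ran from 1.43 to 1.56, and single mice from 0.94 to 1.97. The second Esr1 probe was above background on 5 of 21 arrays and gave 0.07. Below the reference lay Nr2f2 (COUP-TFII) at -0.49 ± 0.04, Nr4a2 at -0.72 ± 0.04, Thra at -1.03 ± 0.05 and Vdr at -1.77 ± 0.04. Vdr, the vitamin D receptor, ranged from -2.52 to -1.43 in day 1 controls and from -2.55 to -1.20 in day 28 controls, and from -2.65 to -1.32 and -2.35 to -1.25 in TiO2 mice of days 1 and 28. Its means by scan day were -1.49, -2.37 and -1.46, and scan day took 86.4% of its variance. Thra read -1.38, -0.68, -0.65, -0.47 and -0.73 in day 1 controls and between -1.92 and -0.67 in day 28 controls. It ranged from -1.92 to -0.43 in TiO2 mice of day 1 and from -1.97 to -0.57 in those of day 28, with means by scan day of -1.63, -0.63 and -0.80. Nr4a2, an immediate early receptor with no known ligand, ranged from -1.26 to -0.41 over all mice. Over the 27 genes the median share of variance taken by scan day was 49.5%, from 3.07% in Nr2f6 to 87.2% in Nr5a2, and it was over 50% in 13 genes. The median share taken by the groups was 7.42%.

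One day after TiO2, 0 of the 27 receptor genes passed an adjusted p of 0.05 by limma, as did 0% of the 17658 features tested. At an unadjusted p under 0.05 there was 1 member, Esr1, against 4.1% of all features. The differences of TiO2 from control, in log2 ratio, ran from -0.21 in Rxrg to 0.36 in Esr1, with 11 genes above 0 and 16 below and a median of -0.05, against a median of -0.01 over all features. The 95% interval of the difference lay within 1.5-fold either way for 23 of 27 members, against 94.5% of all features. For the other 4, Esr1, Rxrg, Nr1i2 and Rarb, a difference of that size is not excluded by these arrays. Of the 27, 0 had TiO2 and control groups that did not overlap, against 0.108% of all features.

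**Figure D3:**
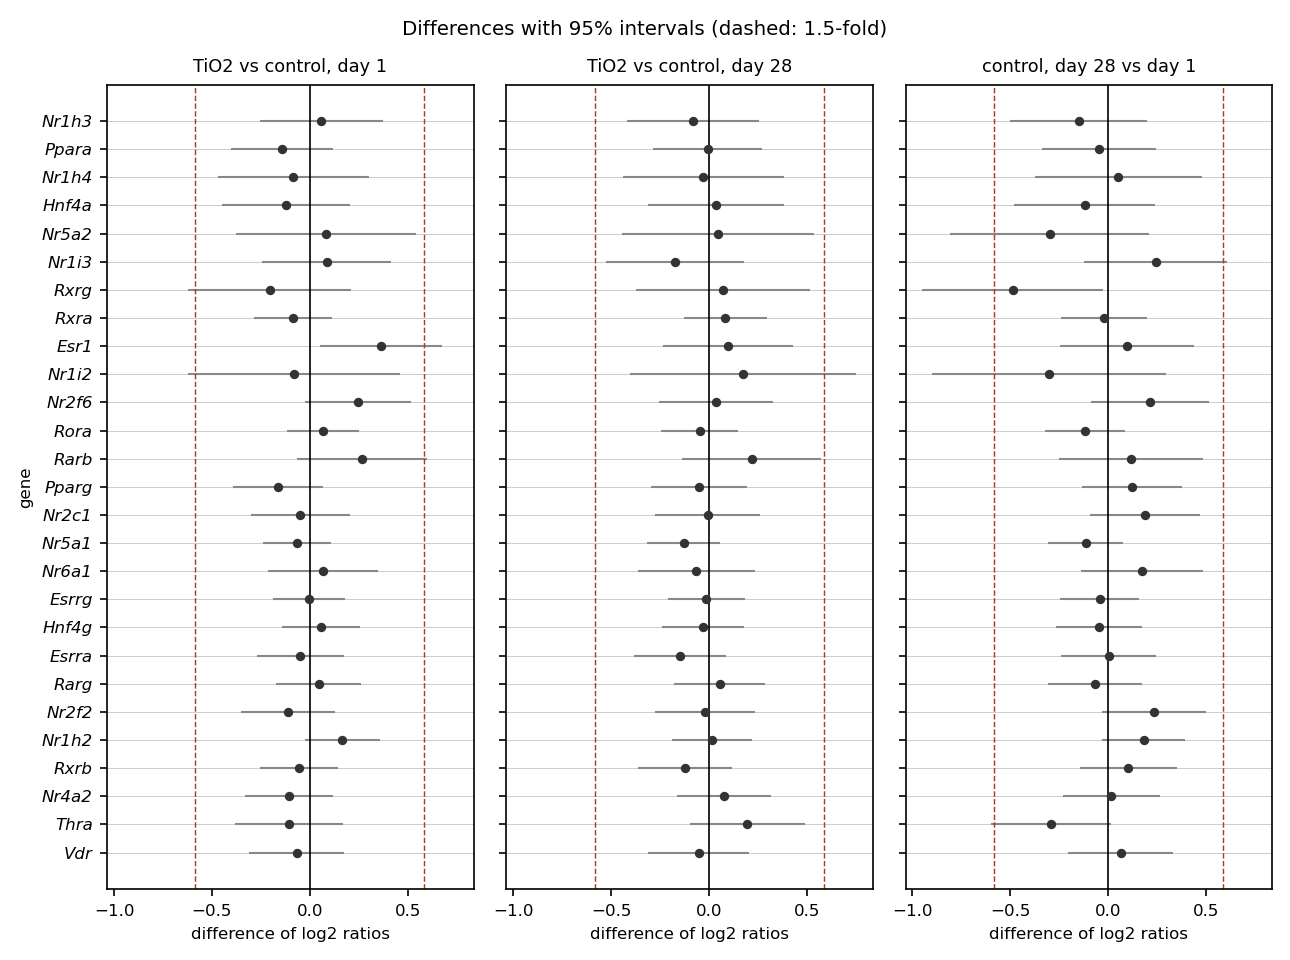
Differences of log2 ratios (x axes) with 95% intervals of the limma fit for the 27 receptor genes, for TiO2 against control at day 1 (left) and day 28 (middle) and for control mice of day 28 against day 1 (right); dashed lines mark 1.5-fold. The intervals span 0 except for Esr1 at day 1 and Rxrg in control mice over time.

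Esr1 read 1.56, 3.04, 2.55, 2.86 and 2.61 in day 1 controls, and 2.59, 2.42, 2.79, 3.29, 2.77 and 2.91 in TiO2 mice of day 1. The groups overlapped, and the control of 1.56, from scan day 1, lay well below the rest. The difference was 0.36 ± 0.15 (SE, 95% interval 0.05 to 0.67), with an unadjusted p of 0.0248 and an adjusted p of 0.993 by limma, and 5 of 6 TiO2 values exceeded the control mean. An exact permutation test of the labels within scan days, two-sided, gave 0.0833. Within scan days 1, 2 and 3 the difference was 0.94, 0.25 and 0.11, and without control day 1 replicate 1 it was 0.21. On the 5 slides that held both groups, 1 mouse of each, it ran from -0.25 to 1.03, above 0 on 3, and with slide as a random block it was 0.36 and did not pass the adjusted threshold. At day 28 it was 0.10 ± 0.16, and the mean over both days was 0.23 ± 0.11 with an adjusted p of 1 by limma. The second Esr1 probe, near background, gave -0.02 at day 1.

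The next 2 by p at day 1 shared that control mouse. Nr2f6 (EAR2), a repressor of the COUP-TF family, read 0.97, 1.98, 1.79, 1.84 and 1.74 in controls, and 1.86, 1.91, 1.97, 1.86, 1.96 and 1.83 in TiO2 mice. Its difference was 0.25 ± 0.13 (95% interval -0.03 to 0.52), and 0.03 without control day 1 replicate 1. Nr1h2 read -0.87, -0.57, -0.68, -0.70 and -0.54 in controls and -0.31, -0.28, -0.63, -0.60, -0.70 and -0.45 in TiO2 mice. Its difference was 0.17 ± 0.09 (95% interval -0.03 to 0.36). Within scan days 1, 2 and 3 it was 0.57, 0.01 and 0.05. Exact permutation tests gave 0.0648 for Nr2f6 and 0.139 for Nr1h2, where 108 splits allow no p below 0.00926. Over the 30 such tests made in all, the lowest p after Benjamini-Hochberg adjustment was 0.5.

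**Figure D4:**
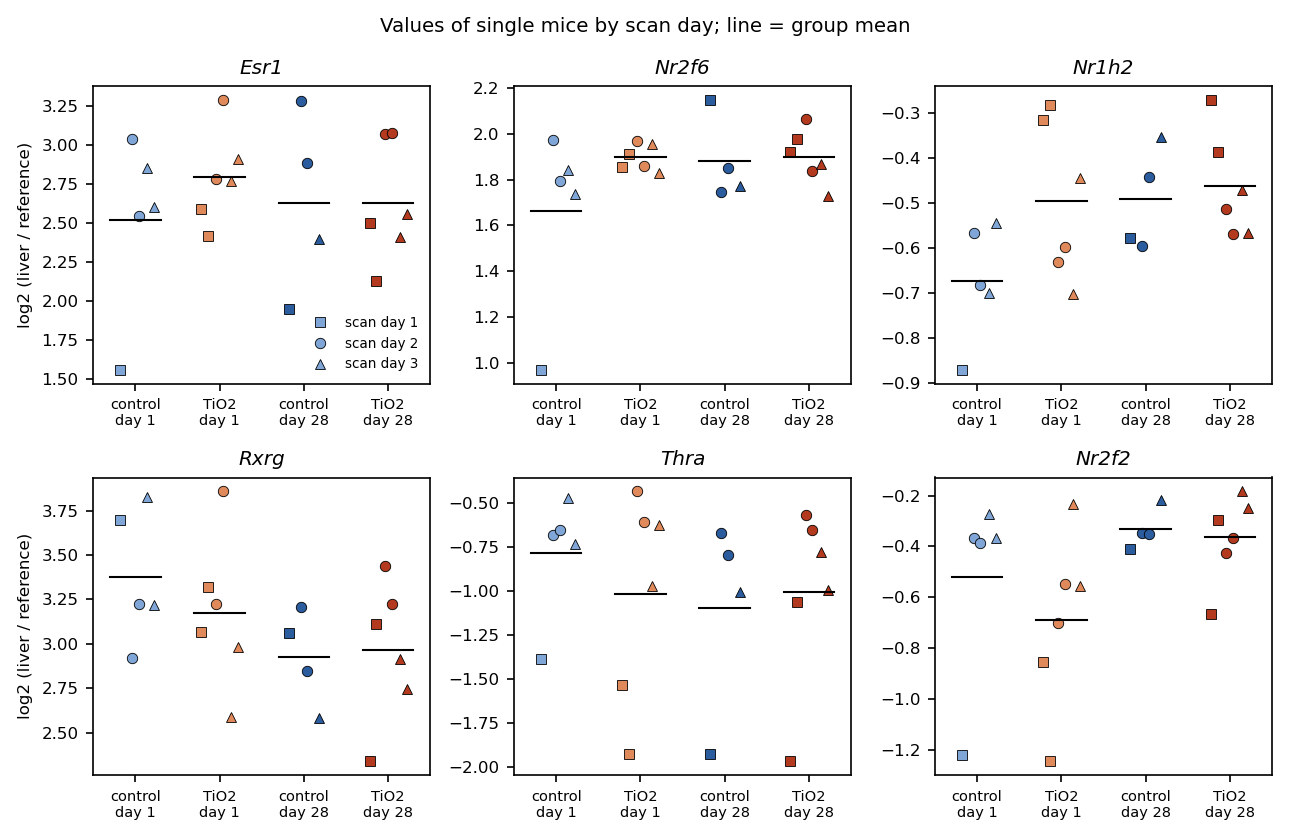
Log2 ratio of liver to reference RNA (y axes) in each mouse for the 6 receptor genes with the smallest p at day 1 (upper row) and in control mice over time (lower row), by group, with the symbol giving the scan day and the line the group mean. The squares of scan day 1 include the lowest control of day 1 for Esr1 (1.56), Nr2f6 (0.97), Nr1h2 (-0.87), Thra (-1.38) and Nr2f2 (-1.22).

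The metabolic receptors showed small differences at day 1. Ppara differed by -0.14 ± 0.13 (95% interval -0.40 to 0.12; -0.20 to -0.046 with 1 array left out), Nr1h3 by 0.06 ± 0.15 (-0.26 to 0.37), Nr1h4 by -0.09 ± 0.19 (-0.47 to 0.30) and Nr1i3 by 0.09 ± 0.16 (-0.24 to 0.42). Nr1i2 had the widest interval of these, -0.62 to 0.46 around -0.08. Hnf4a differed by -0.12 ± 0.16, Nr5a2 by 0.08 ± 0.22, Rxra by -0.09 ± 0.10, Rora by 0.07 ± 0.09 and Nr2f2 by -0.11 ± 0.11. The adjusted p of each was 0.993 by limma. The signs for Nr1h3, Nr1h4, Nr1i2, Nr1i3, Hnf4a and Nr5a2 turned under at least 1 alternative processing and are no direction.

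At day 28, 0 of the 27 passed the adjusted threshold, as did 0% of all features, and 0 members had an unadjusted p under 0.05 against 3.09% of all features. The differences ran from -0.18 in Nr1i3 to 0.22 in Rarb, with 12 above 0 and 15 below, a median of -0.01 and the same median over all features. The interval lay within 1.5-fold for 26 of 27 members, against 93.6% of all features. The 3 smallest p were those of Nr5a1, a receptor of steroid-producing tissues, Thra and the estrogen-related receptor Esrra, a regulator of mitochondrial genes. Nr5a1 differed by -0.13 ± 0.09 (p 0.158), Thra by 0.19 ± 0.14 (p 0.184; 0.079 to 0.27 with 1 array left out) and Esrra by -0.15 ± 0.11 (p 0.206), each with an adjusted p of 1 by limma. The second Thra probe gave -0.01. Esrra read -0.29, -0.13, -0.09 and 0.02 in day 28 controls and -0.48, -0.31, -0.39, -0.06, -0.23 and -0.31 in TiO2 mice, with overlapping groups.

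Of the metabolic receptors at day 28, Ppara differed by -0.01 ± 0.13 (95% interval -0.29 to 0.27), Nr1h3 by -0.08 ± 0.16, Nr1h4 by -0.03 ± 0.20, Nr1i3 by -0.18 ± 0.17 and Nr1i2 by 0.17 ± 0.28 (-0.40 to 0.75), the 1 interval that reached past 1.5-fold. Hnf4a differed by 0.03 ± 0.17, Nr5a2 by 0.04 ± 0.24, Rora by -0.05 ± 0.10, Nr2f2 by -0.02 ± 0.12 and Rxra by 0.08 ± 0.10. The second Rxra probe, above background on all 21 arrays, gave 0.33 ± 0.13 at day 28. It gave -0.20 ± 0.12 at day 1 and -0.30 ± 0.13 in control mice over time. With the mean of all probes of a gene, Rxra had an unadjusted p under 0.05 by limma at day 28. The same held for its change of the TiO2 difference from day 1 to day 28. The counts at an unadjusted p therefore depend on the Rxra probe, and neither value passed the adjusted threshold. At day 28 the signs for these genes other than Nr1h4 and Nr1i3 turned under at least 1 alternative processing, and those of Nr1h4 and Nr1i3 with 1 array left out. The change of the TiO2 difference from day 1 to day 28 passed for 0 members and for 0% of all features, and 0 members had an unadjusted p under 0.05 against 2.94% of all features. It ran from -0.26 in Esr1 to 0.30 in Thra, and its interval stayed within 1.5-fold for 17 of 27 members against 79.3% of all features. Averaged over both days, the difference passed for 0 members and 0% of all features, and at an unadjusted p under 0.05 for 1 member, Esr1, against 4.33% of all features. The interval lay within 1.5-fold for all 27 tested members against 98.1% of all features.

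Control mice of day 28 against those of day 1 differ in age as well as in time since the vehicle, and their number limits the precision. Again 0 members and 0% of all features passed the adjusted threshold by limma, while 1 member and 7.75% of all features had an unadjusted p under 0.05. That member was Rxrg, a retinoid X receptor better known from muscle and brain. It read 3.70, 2.92, 3.23, 3.83 and 3.22 at day 1 and 3.06, 3.21, 2.85 and 2.59 at day 28. All 4 day 28 controls lay below the day 1 mean, but the groups overlapped. The difference was -0.49 ± 0.22 (95% interval -0.95 to -0.03, adjusted p 0.633 by limma), and it was -0.63, -0.05 and -0.94 within scan days 1, 2 and 3, and -0.02 and -0.63 on the 2 slides that held both groups. An exact permutation test gave 0.0833, where the smallest p the 36 splits allow is 0.0278.

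Thra followed with -0.29 ± 0.15 and Nr2f2 with 0.23 ± 0.13, both with intervals that span 0. Nr2f2, which marks veins and mesenchyme as well as hepatocytes, read -1.22, -0.37, -0.39, -0.27 and -0.37 at day 1 and -0.41, -0.35, -0.35 and -0.22 at day 28, and from -1.25 to -0.23 and -0.67 to -0.18 in TiO2 mice of these days. Within scan days 1, 2 and 3 its difference was 0.81, 0.03 and 0.10. Members' differences over time ran from -0.49 to 0.24, with 14 above 0 and 13 below. The interval lay within 1.5-fold for 22 of 27, against 88.8% of all features, and 0 of 27 had control groups of the 2 days that did not overlap, against 0.702%.

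Genes that these receptors bind to or work with were counted from lists chosen with earlier results of these data in view. In each list 0 genes passed the adjusted threshold in any of the 5 comparisons between groups. Counts of sign, counts at an unadjusted p and medians therefore only describe a list. Where a share over all features stands beside a count, it is no test, since the lists were chosen in this way. Of 6 tested receptors outside the 41, Nr4a1 (Nur77), an immediate early receptor, differed by 1.22 ± 0.32 at day 1 (p 0.00102, adjusted p 0.993 by limma). Nr0b2 (SHP), the repressor that FXR induces, differed by 0.45 ± 0.30 at day 1 and 0.46 ± 0.32 at day 28. Of 20 coactivators and corepressors, 8 lay above 0 and 12 below at day 1, and 9 and 11 at day 28. Ncor1, the corepressor of thyroid hormone and retinoic acid receptors, differed by 0.16 ± 0.09 and Tbl1x by 0.19 ± 0.12 at day 1, and Ep300 by -0.12 ± 0.08 and Ppargc1a, the inducible coactivator of oxidative genes, by -0.25 ± 0.18 at day 28.

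Of 25 PPARA targets, 6 lay above 0 and 19 below at day 1, with a median of -0.19, and 11 and 14 at day 28, with a median of -0.02. The median over all features was -0.01 at both days. At day 1, 3 of the 25 were lower at an unadjusted p under 0.05, against 1.91% of all features. The 2 with the smallest p were the peroxisomal thiolase Acaa1a, at -0.31 ± 0.09, and the mitochondrial acyl-CoA dehydrogenase Acadl, at -0.34 ± 0.14. At day 28 they were Acaa1b, at -0.27 ± 0.10, and the lipid droplet coat Plin2, at 0.29 ± 0.22. Of 11 LXR targets, 1 lay above 0 and 10 below at day 1, with a median of -0.12, and 7 and 4 at day 28, with a median of 0.11. The degrader of the LDL receptor Mylip differed by -0.26 ± 0.14 and Lpl by -0.28 ± 0.23 at day 1. At day 28 the desaturase Scd1 differed by -0.61 ± 0.28 and Mylip by 0.28 ± 0.15.

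Of 12 FXR targets, Nr0b2 among them, 5 lay above 0 and 7 below at day 1, and 8 and 4 at day 28. The list mixes genes that FXR induces, such as Nr0b2, with genes it represses, such as Cyp7a1, so these counts give no direction for FXR. Cyp7a1, which sets the rate of bile acid synthesis and is repressed by FXR through SHP, differed by -1.69 ± 0.47 at day 1 (p 0.00158, adjusted p 0.993 by limma) and by -1.23 ± 0.50 at day 28 (p 0.0219, adjusted p 1). Of 25 CAR and PXR targets, 11 lay above 0 and 14 below at day 1, and 9 and 16 at day 28. Cyp2b13 differed by -0.54 ± 0.22 and Cyp2c29 by 0.27 ± 0.11 at day 1, and the bile pump Abcc2 by -0.34 ± 0.17 and the carboxylesterase Ces2a by 1.00 ± 0.53 at day 28. In control mice over time, 6 of these 25 lay above 0 and 19 below, with a median of -0.16 against 0.00 over all features, and 8 were lower at an unadjusted p under 0.05, against 3.81% of all features.

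Targets of the other receptors were counted in the same way. Of 11 genes of retinoid handling, 4 lay above 0 at day 1 and 5 at day 28. The plasma carrier Rbp4 differed by 0.32 ± 0.16 and the retinoic acid hydroxylase Cyp26a1 by -0.66 ± 0.40 at day 1, and Dhrs3 by -0.44 ± 0.22 and Rdh11 by 0.10 ± 0.16 at day 28. Of 7 thyroid hormone receptor targets, 6 lay above 0 at day 1 and 4 at day 28. G6pc, the last enzyme of glucose release, differed by 0.49 ± 0.16 and Thrsp by 0.29 ± 0.15 at day 1, and Bcl3 by 0.43 ± 0.23 and Klf9 by 0.26 ± 0.25 at day 28. Of 13 HNF4A targets, 8 lay above 0 at day 1 and 6 at day 28. Apob differed by 0.35 ± 0.17 and Apoc3 by 0.17 ± 0.10 at day 1, and Mttp by 0.34 ± 0.18 at day 28. Of 8 steroid receptor targets, 5 lay above 0 at day 1 and 4 at day 28. This list includes targets of the glucocorticoid receptor (Nr3c1), which is not among the receptors described here. At an unadjusted p under 0.05 by limma, 2 were higher and 1 lower at day 1, against 4.1% of all features in either direction. In control mice over time 3 were higher and 0 lower, against 7.75%. Igfbp1, which binds insulin-like growth factors and is induced by glucocorticoids, differed by 0.69 ± 0.21 and the kinase Sgk1 by 0.62 ± 0.24 at day 1, and Per1 by -0.22 ± 0.22 and Igfbp1 by 0.17 ± 0.22 at day 28.

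Markers of other liver cells, which also hold some of these receptors, were set beside the differences. All 9 Kupffer cell markers on the array were above background on all 21 arrays, with a median difference of 0.15 at day 1 and 0.20 at day 28, where 3 had an unadjusted p under 0.05, a share to be read against 3.09% of all features. Of 9 sinusoidal endothelial markers, 8 were above background on all 21 arrays, with medians of -0.08 and 0.25, and 2 under that p at day 28. Of 10 stellate cell markers 8 were above background on all arrays, with medians of -0.09 and 0.03 and 1 under that p at day 28, and of 6 cholangiocyte markers 3, with medians of -0.02 and -0.16. In control mice over time 1 Kupffer and 1 stellate cell marker were under that p, against 7.75% of all features. The hepatocyte markers had medians of 0.00 at day 1 and -0.07 at day 28. They include Hnf4a itself and Apob, also counted as an HNF4A target, so they are not separate from the receptors. Of 7 markers of T, NK and B cells and 5 of neutrophils, 1 each was above background on all arrays, and the granule genes Camp and Ngp on 0. The part of cell composition in the receptors' differences was not tested.

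After removing scan day means, the genes whose log2 ratio followed Ppara most closely over the 21 arrays, among 11137 named genes, were Osbpl1a (Pearson's r 0.863), Ankfy1 (0.824) and Ilk (0.813). For Nr1i3 they were Atg12 (0.787), Cherp (0.756) and Huwe1 (0.753). Without the 2 arrays farthest from the median, r was 0.817, 0.722 and 0.734 for Ppara and 0.645, 0.485 and 0.498 for Nr1i3. These are the highest of many values, and the points share arrays, labelling and reference, so they are descriptions. Over all genes compared, the 5th and 95th percentile of r were -0.438 and 0.55 for Ppara and -0.476 and 0.441 for Nr1i3.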

How the data were processed

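The members and gene lists were chosen with earlier results of these data known. RNA was measured on 21 Agilent arrays of 2 colours. The deposited spot values are intensity, the median brightness of a spot and of its background, not normalized. The LogRatio column, as deposited, is log10 of processed red over green. Both statements are per the file headers. The authors' deposited table holds log2 values of unstated scale and direction. It was matched to the scanner values, at r of 0.9957 to 0.9971 per array. Feature Extraction is version 10.7.3.1 per the file headers and 9.5.3.1 per the submitters' processing notes. The authors' own filters are not given in the sources used here.

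In limma 3.58.1 (R 4.3.3), background was corrected by normexp with an offset of 50 on median signals, in place of the mean signals planned, and dyes were balanced by loess within each array. Control spots and spots whose own signal was marked as an outlier or flagged by hand were left out, and spots of a probe were averaged. Spots marked for their background alone were kept. Where that mark was for uneven background, signal and background were both set to the array's median background before the correction. Probes above background in liver on 50% or more of the arrays in any group were kept, 1 per gene by brightness, which left 17658 features. The model held 4 group means and scan day, and p-values were adjusted by Benjamini-Hochberg over all features. Liver against reference was called at an adjusted p under 0.05 and a log2 ratio of at least 1 in size. Rxrb lacked 1 array. Receptors with per-mouse values were 12 liver receptors listed by name, the 3 with the smallest p in each of 3 comparisons, and the 4 highest and 4 lowest over the reference. From each list the 2 genes with the smallest p at either day are named, and some items are not reported here. Replicate numbers only name the mice and pair nothing. The script was tested on simulated data. The number of arrays limits the precision.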

Additional observations from a re-analysis of the deposited data

Results flagged for a closer look

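In 17 receptor genes with values per mouse, 9 of 68 groups held a mouse that stood apart from the rest of its group by Dixon's test at 95%. Chance gives about 1 in 20 for independent groups, but the 17 genes share the same mice. Scan day was not removed first, and either control group had only 1 array of scan day 1. The count is therefore a description. Of the 9, 8 were mice of scan day 1. Control day 1 replicate 1 stood low in 5 genes: Nr1h4 at 3.171 (the others 4.38 to 4.67), Nr5a2 at 2.633 (4.588 to 5.043), Nr2f2 at -1.219 (-0.3879 to -0.2702), Nr2f6 at 0.9675 (1.736 to 1.976) and Thra at -1.383 (-0.7324 to -0.4737). Control day 28 replicate 1 stood low in Nr1h4 at 2.866 (4.6 to 4.929) and in Ppara at 3.396 (4.505 to 4.582). TiO2 day 28 replicate 1 stood low in Thra at -1.967 (-1.062 to -0.5651). The ninth, TiO2 day 1 replicate 3 of scan day 2, stood low in Nr1h3 at 4.057 (4.465 to 4.574).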

How the results depend on the processing

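No paired analysis was possible because the labels give no replicate numbers that the groups share. Control and TiO2 mice do share slides, and with slide as a random block no receptor passed the adjusted threshold between groups, while an unadjusted p under 0.05 was met by 845 features instead of 724 at day 1 and by 615 instead of 545 at day 28. The values within slides were chosen after seeing the data. Under 14 other settings for each of 30 gene comparisons, no receptor passed the adjusted threshold between groups, and 392 of 420 values kept their sign, as did 597 of 630 with 1 array left out. Receptors called against the reference numbered 15 to 19 instead of 16. The members with an unadjusted p under 0.05 by limma also changed. At day 28 the deposited table gave Rxrb, and no filter on dim probes gave Nr2c2, otherwise not tested. At day 1 Nr1h2 replaced Esr1 without background subtraction. No member was left without scan day in the model or with scan days 2 and 3 only. Esr1 was also lost without control day 1 replicate 1 or 3, or TiO2 day 1 replicate 1. Over all features the scanner software's LogRatio gave 8230 calls against the reference instead of 4635, and 1 call for the mean of both days instead of 0. With each array left out in turn, calls ranged from 0 to 3 at day 1 (3 without TiO2 day 1 replicate 2), from 0 to 1 for the mean of both days (without TiO2 day 1 replicate 2 or 4) and from 0 to 9 for control mice over time (9 without control day 1 replicate 2, 1 without replicate 4). The cause was not tested. The split of the 27 members at day 1, 11 above 0, was 17 with LogRatio. It gave these turned signs: at day 1 Nr1h4 0.067, Nr1i2 0.14, Nr1i3 -0.063 and Hnf4a 0.027, and at day 28 Nr2f2 0.017, Nr5a2 -0.27, Rxra -0.0012 and Hnf4a -0.039. Without scan day in the model, Nr5a2 was -0.21 at day 1, and at day 28 Nr5a2 was -0.19, Esr1 -0.0031 and Hnf4a -0.0027. At day 28 the liver channel alone gave Nr5a2 -0.029 and Hnf4a -0.081, array weights Nr5a2 -0.092, the authors' deposited table Hnf4a -0.024, the mean of all probes Rora 0.0033, and Ppara was 0.0090 with an offset of 10, 0.013 with scaling between arrays and 0.019 with only the groups compared. Scan days 2 and 3 alone, chosen after seeing the data, gave Nr1h3 -0.013 and Nr1i3 -0.021 at day 1, and at day 28 Nr1h3 0.032, Nr1i2 -0.077, Nr5a2 -0.28, Rxra -0.021, Rora 0.0045 and Esr1 -0.015. With 1 array left out, day 1 values ranged from -0.076 to 0.16 for Nr1h3, -0.16 to 0.021 for Nr1h4, -0.22 to 0.065 for Nr1i2, -0.080 to 0.17 for Nr1i3, -0.025 to 0.21 for Nr5a2 and -0.22 to 0.0040 for Hnf4a. Day 28 values ranged from -0.20 to 0.074 for Nr1h4, -0.042 to 0.35 for Nr1i2, -0.29 to 0.015 for Nr1i3, -0.093 to 0.073 for Nr2f2, -0.22 to 0.18 for Nr5a2, -0.15 to 0.043 for Ppara, -0.11 to 0.0058 for Rora and -0.16 to 0.14 for Hnf4a. Other values kept their sign with 1 array left out but moved by over 1.5 times, ranging at day 1 for Nr1h2 from 0.071 to 0.21, Nr2f2 from -0.24 to -0.056, Nr2f6 from 0.027 to 0.32, Rxra from -0.14 to -0.043, Rora from 0.039 to 0.12 and Esr1 from 0.21 to 0.46, at day 28 Nr1h3 from -0.26 to -0.0020, Rxra from 0.028 to 0.14, Esr1 from 0.025 to 0.21, Esrra from -0.19 to -0.096 and Nr5a1 from -0.20 to -0.089, and Nr2f2 over time from 0.11 to 0.28. Signals near background limit Vdr, Nr4a2, Rarg, Hnf4g and Nr6a1 in liver and Hnf4a, Nr1i2, Rxrg, Nr5a2 and Hnf4g in the reference.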
